A study of Mus musculus with 4 samples.

Results

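The 10 genes described here encode elastin and proteins of the microfibrils and fibulins that surround it: Eln, Fbn1, Fbn2, Fbln1, Fbln2, Fbln5, Mfap2, Mfap4, Mfap5 and Efemp1. They were listed by symbol, in a list chosen from levels and ratios already seen in these 4 libraries, and all 10 were found among the 32285 genes of the count matrices. Their levels were measured by single-cell RNA sequencing of cultured mouse cells in 4 libraries, 1 per condition. The study grew de-differentiated fat (DFAT) cells, which are fibroblast-like cells that arise when floating adipocytes attach to the upper wall of an inverted flask (ceiling culture), and compared them with the cultured stromal vascular fraction (SVF), the source of its adipose stem and progenitor cells (ASPCs). The libraries are named iWAT_DFAT and eWAT_DFAT for DFAT cells from inguinal (subcutaneous) and epididymal (visceral) white adipose tissue, and iWAT_ASPC and eWAT_ASPC for the cultured SVF cells of the same depots. The mice were C57BL/6J males on chow diet, with adipocytes and SVF cells taken in parallel from each depot. All 4 cell preparations were detached with trypsin and sorted as living cells before capture. Both kinds of culture were primary, the number and age of the mice behind each library are not given in the sources used here, and the labels call the ASPC libraries cultured SVF cells and name no sort for progenitors.

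A barcode was kept as a cell with 5000 to 75000 molecule tags (UMIs; reads with the same tag count as 1 captured transcript), 200 to 7500 genes and under 10% mitochondrial UMIs. This left 7629 cells of iWAT_DFAT, 6464 of eWAT_DFAT, 7424 of iWAT_ASPC and 6745 of eWAT_ASPC, with 183664704 to 199357348 UMIs per library and median depths of 22111 to 27617 UMIs per cell. Any pair of libraries shared 13 to 20 of these cell barcodes. Levels are counts per 1000000 UMIs of the cells of a library (CPM), and 3 UMIs corresponded to 0.0150 to 0.0163 CPM. No condition has a second library, so no test was made, and the 95% intervals below hold counting error only. Clusters were formed in each library without the 10 genes and their partner genes. Of 41 clusters, 26 were stromal-like, holding 98.9% of the cells of iWAT_DFAT, 89.7% of eWAT_DFAT, 94.3% of iWAT_ASPC and 87.5% of eWAT_ASPC. The 11 stromal markers summed to 2424 CPM in eWAT_DFAT and to 7084 to 7978 CPM in the other libraries, with Col1a1, Col1a2 and Col3a1 at 693, 902 and 315 CPM in eWAT_DFAT and at 1089 CPM or more in the others. Of the other stromal markers, Pdgfrb, Thy1 and Ly6a were also lowest there, at 84.9, 20.9 and 38.6 CPM. The rest were not, such as Pdgfra at 95.2 CPM, above both ASPC libraries (84.5 and 82.5 CPM). The 7 contractile genes (Acta2, Tagln, Cnn1, Myl9, Actg2, Myh11 and Tpm2) summed to 1169 CPM in iWAT_DFAT, 8669 CPM in eWAT_DFAT, 16582 CPM in iWAT_ASPC and 21716 CPM in eWAT_ASPC.

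In the GRCm38 (mm10) annotation of GENCODE, Eln lies on the minus strand at chr5:134702593-134747323 and Fbn1 on the minus strand at chr2:125300594-125507993. Fbn2 lies on the minus strand of chromosome 18 and spans 202 kb. The fibulin genes lie at chr15:85205949-85286535 (Fbln1, plus strand), chr6:91212455-91272540 (Fbln2, plus strand), chr12:101746565-101819055 (Fbln5, minus strand) and chr11:28853204-28926743 (Efemp1, plus strand). The microfibril-associated genes lie at chr4:141010418-141015984 (Mfap2), chr11:61485431-61488900 (Mfap4) and chr6:122505845-122529290 (Mfap5), each on the plus strand. The members therefore spread over 8 chromosomes, with Fbln2 and Mfap5 both on chromosome 6 and Mfap4 and Efemp1 both on chromosome 11.

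An elastic fibre has a core of crosslinked elastin on a scaffold of microfibrils. Fibrillins (Fbn1, Fbn2) polymerise into the microfibrils, to which the microfibril-associated glycoproteins encoded by Mfap2 and Mfap5 bind. Fibulins bridge tropoelastin, the soluble elastin monomer, to the scaffold and to lysyl oxidases, the enzymes that crosslink it. Microfibrils also hold latent TGF-beta in the matrix. In adipose tissue, fibroblastic progenitors make much of the matrix around the adipocytes.

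The promoters of Mfap2 and Fbln5 are shown because these genes had different patterns over the libraries: the level of Mfap2 was higher in the inguinal library of both cell preparations, and that of Fbln5 was lower in DFAT cells than in ASPCs and close between depots. RefSeq (GRCm38.p6) windows were found for 6 of the 10 members, and each sequence is the 250 bases before the annotated start, 5′ to 3′ on the strand of the gene. Both strands were searched for 5 short motifs, the GC box (GGGCGG), the TATA box (TATAAA) and those named for AP-1, TEAD and SMAD, whose letters stand beside their shares of all windows. Capitals mark the matches, and no matches overlapped in the windows shown. The Mfap2 window is chr4:141010174-141010423 (plus strand) and the Fbln5 window is chr12:101819120-101819369 (minus strand).
Mfap2: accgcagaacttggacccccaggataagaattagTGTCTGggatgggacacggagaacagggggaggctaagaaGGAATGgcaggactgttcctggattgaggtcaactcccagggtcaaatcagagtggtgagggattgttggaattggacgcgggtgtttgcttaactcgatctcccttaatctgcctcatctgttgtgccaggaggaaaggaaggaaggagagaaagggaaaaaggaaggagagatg
Fbln5: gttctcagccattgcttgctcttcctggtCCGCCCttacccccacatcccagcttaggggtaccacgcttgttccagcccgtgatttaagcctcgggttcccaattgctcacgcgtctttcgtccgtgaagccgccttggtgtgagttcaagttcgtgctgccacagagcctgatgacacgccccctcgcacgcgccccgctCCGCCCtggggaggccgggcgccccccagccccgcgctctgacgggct

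The Mfap2 window held 1 match to the TEAD motif GGAATG, which 12.6% of all 32851 windows held. It also held 1 match to the SMAD motif CAGACA, read there on the opposite strand, which 17.1% of windows held. The Fbln5 window held 2 matches to GGGCGG, a motif found in 32.7% of all windows. Fbn1, Fbln2 and Efemp1 each had 1 match to GGGCGG, Efemp1 also had 1 to the AP-1 motif TGANTCA (6.75% of all windows), and Fbln1 had 1 to the SMAD motif. TATAAA, present in 12.4% of all windows, matched in none of the 6. The share of G and C was 51.2% in the Mfap2 window and 65.2% in that of Fbln5, and its median over all windows was 52.4%. These matches describe the letters and are not evidence of binding.

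Elastin was lower in DFAT cells than in ASPCs of both depots. Eln was at 42.7 CPM (95% interval 41.8 to 43.6) in iWAT_ASPC and 13.5 CPM (13.0 to 14) in eWAT_ASPC, but at 2.12 CPM (1.92 to 2.35) in iWAT_DFAT and 0.453 CPM (0.361 to 0.56) in eWAT_DFAT. No neighbouring intervals overlapped in this order, and the highest measured level was 94.3 times the lowest. The lowest rests on 84 UMIs and lay below the level of Eln in the free RNA of its library (1.08 CPM), so this fold is not a precise value. The log2 ratio of DFAT cells to ASPCs was -4.33 (-4.48 to -4.18) in iWAT and -4.89 (-5.23 to -4.58) in eWAT. The log2 ratio of iWAT to eWAT was 2.23 (1.89 to 2.59) in DFAT cells and 1.66 (1.6 to 1.73) in ASPCs. The contractile genes were also higher in ASPCs than in DFAT cells of the same depot; their part in the Eln difference was not tested.

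In iWAT_ASPC, Eln UMIs were concentrated in part of the cells: 28.2% of cells had a UMI of it, the highest cell had 86, and the tenth of cells with the most Eln held 78.0% of its UMIs. Among the stromal-like clusters of that library, cluster 1 (1596 cells, led by Olfr1033 and Comp, a cartilage oligomeric matrix protein) had 81.8 CPM (79.1 to 84.6). Cluster 4 (698 cells, led by Lbp and Ly6c1) had 76.6 CPM and cluster 5 (489 cells, led by Hsd3b6) had 2.64 CPM (1.91 to 3.55). The range from the lowest to the highest stromal-like cluster of this library was therefore 31.0-fold. The difference between the inguinal and epididymal ASPC libraries, 3.17-fold, compares levels over all cells and is not a like measure.

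In eWAT_ASPC, Eln was highest outside the stromal-like cells. The mesothelial-like cluster, cells that carry markers of the lining of the visceral fat pad, was 7.12% of the cells (480) and held 43.8% of the Eln UMIs, at 100 CPM against 8.17 CPM in the stromal-like cells of the library. After thinning each cell to 5000 UMIs, Eln had a UMI in 29.0% of the mesothelial-like and 3.07% of the stromal-like cells. All 8 mesothelial markers were at least 2-fold higher in this cluster than in the other cells. In the whole eWAT_ASPC library 7 of these 8 markers reached 5 CPM, with a sum of 120 CPM, while 0 or 1 did in the other libraries, with sums of 5.92 CPM in iWAT_DFAT, 11.9 CPM in eWAT_DFAT and 73.7 CPM in iWAT_ASPC, where Krt19 gave 70.7 CPM. Msln was at 0 in iWAT_DFAT and Muc16 at 0 in iWAT_ASPC. Without the cells of clusters named for a type other than stromal, the log2 ratio of iWAT_ASPC to eWAT_ASPC for Eln was 2.41 and that of eWAT_DFAT to eWAT_ASPC was -4.21. In the mesothelial-like cluster of eWAT_DFAT (77 cells) Eln was at 2.16 CPM.

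**Figure D1:**
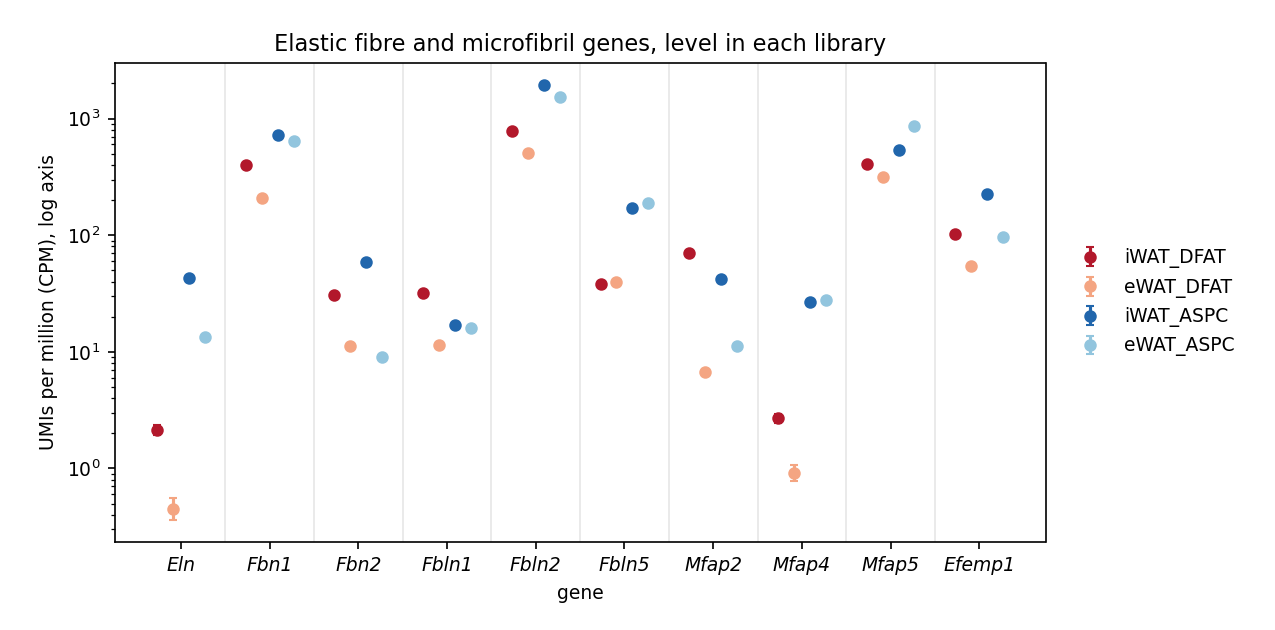
Level of each gene in each library (CPM, log axis) with exact 95% Poisson intervals, most of which are smaller than the points; levels are to be read within a gene. Eln and Mfap4 sit lowest in both DFAT libraries (0.453 to 2.71 CPM), Mfap2 is highest in iWAT_DFAT (70.3 CPM), and Mfap5 is highest in eWAT_ASPC (862 CPM).

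The fibrillins, the backbone of microfibrils, had different patterns. Fbn1, the main fibrillin of adult tissue, was at 397 CPM (394 to 400) in iWAT_DFAT, 209 CPM (207 to 211) in eWAT_DFAT, 728 CPM (725 to 732) in iWAT_ASPC and 638 CPM (634 to 641) in eWAT_ASPC. It was thus lower in DFAT cells than in ASPCs in both depots, with log2 ratios of -0.88 (-0.89 to -0.86) in iWAT and -1.61 (-1.63 to -1.6) in eWAT. Its log2 ratio of iWAT to eWAT was 0.93 (0.91 to 0.95) in DFAT cells and 0.19 (0.18 to 0.20) in ASPCs. Fbn2, a fibrillin best known from developing tissue, was at 31.0 CPM (30.2 to 31.8) in iWAT_DFAT, 11.2 CPM (10.7 to 11.7) in eWAT_DFAT, 58.7 CPM (57.7 to 59.8) in iWAT_ASPC and 8.99 CPM (8.57 to 9.41) in eWAT_ASPC. Its inguinal levels were above the epididymal levels in both preparations, with log2 ratios of 1.47 (1.40 to 1.54) in DFAT cells and 2.71 (2.64 to 2.78) in ASPCs. Between DFAT cells and ASPCs the Fbn2 log2 ratio was -0.92 (-0.97 to -0.88) in iWAT and 0.32 (0.22 to 0.41) in eWAT. Both fibrillin genes are longer than 200 kb, and over all genes longer than 100 kb the median log2 ratio was 0.292 for iWAT_DFAT over eWAT_DFAT and 0.313 for iWAT_DFAT over iWAT_ASPC, against -0.042 and -0.069 for genes shorter than 10 kb. It was 0.128 for iWAT_ASPC over eWAT_ASPC and 0.154 for eWAT_DFAT over eWAT_ASPC. The iWAT_ASPC file names another version of the counting software, and whether it counted introns as the others did is not known, which limits the fibrillin ratios to that library.

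Fbn2 was uneven among the stromal-like clusters of iWAT_ASPC. Cluster 2 (1314 cells), led by Dkk2, Aspn, Ptn and Ogn, had 146 CPM (142 to 150) and cluster 5 had 10.6 CPM (9.04 to 12.3), a 13.8-fold range. The gene took no part in the clustering, and within the same library Fbn1 ranged 2.24-fold, from 429 CPM in cluster 5 to 962 CPM in cluster 2. In eWAT_DFAT the range was 4.44-fold for Fbn2 and 1.80-fold for Fbn1, and in eWAT_ASPC 5.05-fold and 2.59-fold. In iWAT_DFAT the measured range was 26.2-fold for Fbn1 and 16.6-fold for Fbn2, with both measured lowest in cluster 6 of that library (99 cells). The Fbn2 level of that cluster, 2.22 CPM, rests on 2 UMIs, so which of these ranges was wider was not resolved. Adipocyte-like cells had Fbn2 at 39.6 CPM (28.5 to 53.5) in iWAT_DFAT (46 cells) and 15.1 CPM (10.0 to 21.8) in eWAT_DFAT (98 cells). The levels in the stromal-like cells of each library, 31.1 and 11.6 CPM, lay within these intervals. Fbn1 was at 70.6 and 9.16 CPM in these adipocyte-like cells, against 400 and 214 CPM in the stromal-like cells.

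Fbln2 and Fbln1 are fibulins of basement membranes and elastic fibres. Fbln2 was at 788 CPM (784 to 792) in iWAT_DFAT, 506 CPM (502 to 509) in eWAT_DFAT, 1943 CPM (1937 to 1949) in iWAT_ASPC and 1516 CPM (1510 to 1521) in eWAT_ASPC. Both DFAT libraries were below both ASPC libraries, with log2 ratios of -1.30 (-1.31 to -1.29) in iWAT and -1.58 (-1.59 to -1.57) in eWAT. The log2 ratio of iWAT to eWAT was 0.64 (0.63 to 0.65) in DFAT cells and 0.36 (0.35 to 0.37) in ASPCs. Fbln1 was at 32.0 CPM (31.2 to 32.9) in iWAT_DFAT, 11.5 CPM (11.1 to 12.0) in eWAT_DFAT, 17 CPM (16.4 to 17.6) in iWAT_ASPC and 16.0 CPM (15.4 to 16.5) in eWAT_ASPC. It was highest in iWAT_DFAT, at a log2 ratio of 1.47 (1.40 to 1.54) to eWAT_DFAT and 0.92 (0.86 to 0.98) to iWAT_ASPC, and in eWAT its ratio of DFAT cells to ASPCs was -0.47 (-0.55 to -0.39). The Poisson intervals of its ASPC levels overlapped, and the sign of their ratio, 0.09, changed to -0.02 with size factors in place of total UMIs and to -0.03 without cells that had a cell cycle UMI.

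UMIs of Fbln2 were also counted in cells outside the stromal-like clusters. In the neural-like cells of iWAT_DFAT (18 cells, led by Cdh19, Zfp536 and Foxd3) it was at 1353 CPM, against 791 CPM in the stromal-like cells, and 100% of these cells had a UMI of it after thinning. In the 145 neural-like cells of iWAT_ASPC it was at 878 CPM, against 1977 CPM in stromal-like cells. Endothelial-like cells had 120 to 540 CPM over the 4 libraries. In the mesothelial-like cells Fbln2 was at 631 CPM in eWAT_DFAT and 870 CPM in eWAT_ASPC. Free RNA held it at 711 CPM in iWAT_DFAT, 428 CPM in eWAT_DFAT, 2168 CPM in iWAT_ASPC and 1147 CPM in eWAT_ASPC. Only the neural-like cells of iWAT_DFAT and the mesothelial-like cells of eWAT_DFAT were above the free RNA of their library. The part of free RNA in these levels was not tested.

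Fbln5 and Efemp1 encode short fibulins, of which the first guides tropoelastin onto microfibrils. Fbln5 was at 38.3 CPM (37.4 to 39.2) in iWAT_DFAT, 39.6 CPM (38.7 to 40.5) in eWAT_DFAT, 172 CPM (170 to 174) in iWAT_ASPC and 188 CPM (186 to 190) in eWAT_ASPC. It separated the preparations and not the depots: the log2 ratio of DFAT cells to ASPCs was -2.17 (-2.20 to -2.13) in iWAT and -2.25 (-2.28 to -2.21) in eWAT, while the ratio of iWAT to eWAT was -0.05 in DFAT cells, where the intervals of the levels overlapped, and -0.13 (-0.15 to -0.11) in ASPCs. The sign of the -0.05 changed when cells with a UMI of a cell cycle gene were left out and when every cell weighed the same. Efemp1 was at 103 CPM (102 to 105) in iWAT_DFAT, 54.7 CPM (53.6 to 55.7) in eWAT_DFAT, 224 CPM (222 to 226) in iWAT_ASPC and 96.9 CPM (95.5 to 98.3) in eWAT_ASPC. Its inguinal levels were higher in both preparations, at log2 ratios of 0.92 (0.88 to 0.95) in DFAT cells and 1.21 (1.18 to 1.23) in ASPCs, and its DFAT levels were lower in both depots, at -1.12 (-1.14 to -1.09) in iWAT and -0.83 (-0.86 to -0.79) in eWAT. Adipocyte-like cells carried more Efemp1 than the stromal-like cells of their library, at 209 against 103 CPM in iWAT_DFAT and 137 against 56.1 CPM in eWAT_DFAT.

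The microfibril-associated glycoprotein genes Mfap2 and Mfap5 differed from each other in depot pattern. Mfap2 was at 70.3 CPM (69.1 to 71.5) in iWAT_DFAT, 6.76 CPM (6.39 to 7.15) in eWAT_DFAT, 42.5 CPM (41.6 to 43.4) in iWAT_ASPC and 11.2 CPM (10.8 to 11.7) in eWAT_ASPC. Both inguinal libraries were above both epididymal libraries, and the log2 ratio of iWAT to eWAT was 3.38 (3.29 to 3.46) in DFAT cells, a 10.4-fold difference, and 1.92 (1.85 to 1.99) in ASPCs. Between DFAT cells and ASPCs the Mfap2 log2 ratio was 0.72 (0.68 to 0.76) in iWAT and -0.73 (-0.83 to -0.63) in eWAT. Mfap5 was at 406 CPM (403 to 409) in iWAT_DFAT, 313 CPM (311 to 316) in eWAT_DFAT, 534 CPM (531 to 537) in iWAT_ASPC and 862 CPM (858 to 866) in eWAT_ASPC. It was higher in iWAT among DFAT cells, at a log2 ratio of 0.37 (0.36 to 0.39), and lower in iWAT among ASPCs, at -0.69 (-0.70 to -0.68). Its ratio of DFAT cells to ASPCs was -0.40 (-0.41 to -0.38) in iWAT and -1.46 (-1.47 to -1.45) in eWAT.

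Mfap2 and Mfap5 were both highest in cluster 4 of iWAT_DFAT (297 cells, led by Myl9, Isg15 and Pycr1), with 158 CPM (148 to 170) and 786 CPM (761 to 810), although their lowest stromal-like clusters were different. This cluster had a pericyte marker, Ndufa4l2, among its 10 leading genes, and 1 of the 8 pericyte markers was raised in it. It had 0 stromal markers among its leading genes, as did every stromal-like cluster of that library, while 8 of the 11 stromal markers were detected in it. In eWAT_ASPC, cluster 1 (1127 cells), led by Ifit3, Ifit1, Mmp3, Isg15 and Ly6a, had the highest Mfap5 of its stromal-like clusters at 1332 CPM (1320 to 1345). The same cluster had the highest Mfap2 (17.2 CPM), Mfap4 (57.3 CPM), Fbln2 (1765 CPM) and Efemp1 (121 CPM) among them, and the lowest Fbn2 (3.82 CPM). In cluster 4 of eWAT_DFAT, led by Isg15 and Timp1, Mfap5 was at 523 CPM (510 to 535) against 180 CPM (160 to 202) in cluster 10. The mesothelial-like cells of eWAT_ASPC held 13.1% of the Mfap2 UMIs of that library, at 24.9 CPM, and 1.09% of its Mfap5 UMIs.

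Mfap4, whose product binds elastin and fibrillin, followed Eln in being low in DFAT cells but not in its depot pattern. It was at 2.71 CPM (2.47 to 2.95) in iWAT_DFAT, 0.916 CPM (0.783 to 1.06) in eWAT_DFAT, 27.0 CPM (26.3 to 27.7) in iWAT_ASPC and 28.0 CPM (27.3 to 28.8) in eWAT_ASPC. The log2 ratio of DFAT cells to ASPCs was -3.32 (-3.45 to -3.19) in iWAT and -4.94 (-5.16 to -4.71) in eWAT. The ASPC levels had overlapping intervals, and the sign of their ratio, -0.05, changed to 0.12 when every cell weighed the same, while in DFAT cells the ratio of iWAT to eWAT was 1.56 (1.31 to 1.82). Cluster 5 of iWAT_DFAT (161 cells, led by Thbs4, Kcnq3 and Heyl, with 5 of the 7 contractile genes, 6 of the 11 stromal and 3 of the 8 pericyte markers raised 2-fold or more) had 24.9 CPM (20 to 30.5) of Mfap4 and 11.7 CPM (8.5 to 15.8) of Eln. The same cluster had the highest Fbn1 (869 CPM), Fbln1 (51.9 CPM), Fbln2 (1198 CPM) and Fbln5 (60.1 CPM) of the stromal-like clusters of that library, and the lowest Efemp1 (22.7 CPM). Its intervals for Fbln1 (44.8 to 59.8) and Fbln5 (52.4 to 68.6) overlapped those of cluster 4 (36.6 to 48.0 and 44.7 to 57.2). That for Efemp1 (18.1 to 28.1) overlapped that of cluster 6 (23.3 to 48.7). Cluster 6 of iWAT_DFAT (99 cells, with a median of 7824 UMIs per cell) had the lowest measured level, among the 8 stromal-like clusters of that library, of 8 of the 10 members, with Eln and Mfap4 at 0. Each of these zeros allows up to 4.09 CPM, above the levels in cluster 1 (0.863 and 1.05 CPM), so the lowest cluster was not resolved for Eln and Mfap4.

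**Figure D2:**
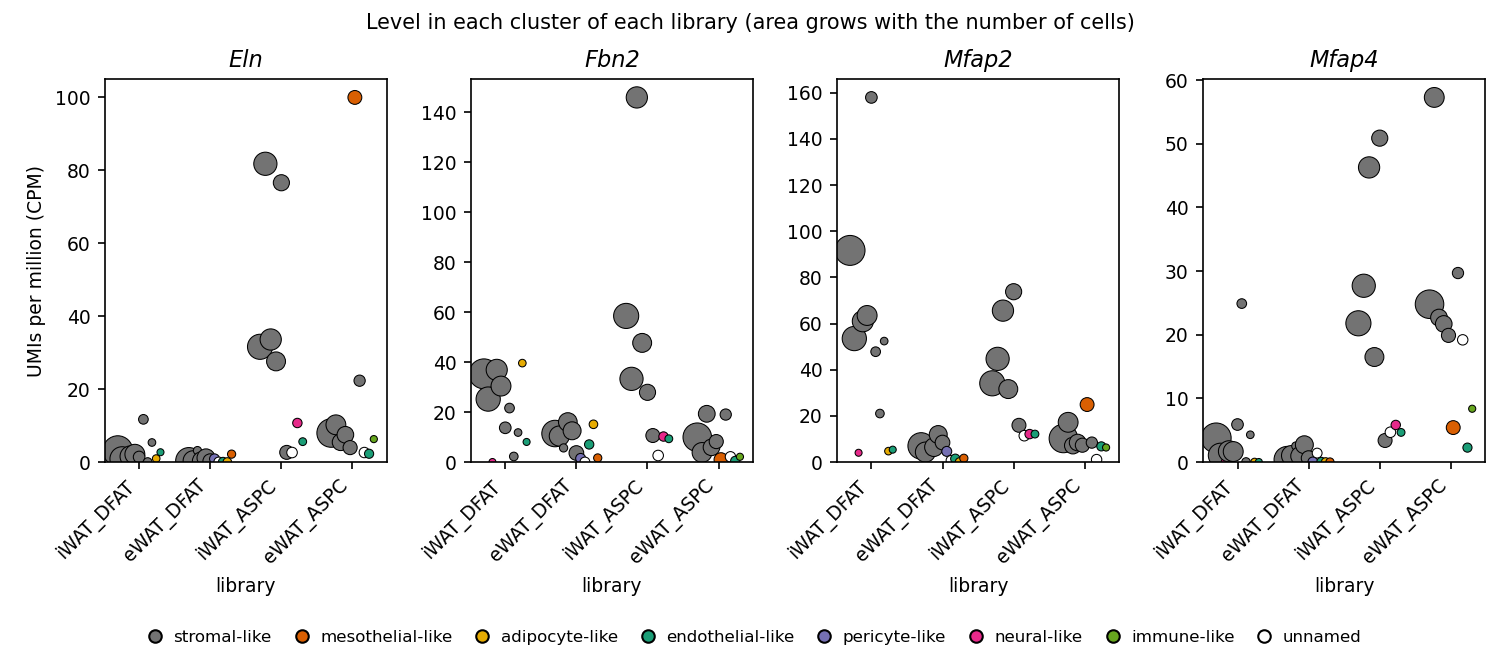
Level (CPM, linear axis from 0) of Eln, Fbn2, Mfap2 and Mfap4 in each cluster of each library; colour gives the cluster's name and area grows with its number of cells. Eln peaks at 100 CPM in the mesothelial-like cluster of eWAT_ASPC and Fbn2 at 146 CPM in a stromal-like cluster of iWAT_ASPC. Mfap2 peaks at 158 CPM in cluster 4 of iWAT_DFAT, a stromal-like cluster with 1 of the 8 pericyte markers raised.

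Over the 10 members, iWAT_DFAT against eWAT_DFAT had 5 that were 2-fold or more higher (Eln, Fbn2, Fbln1, Mfap2 and Mfap4) and 0 that were 2-fold or more lower. Of all 10384 genes with 5 or more CPM in the higher library, 8.29% were 2-fold or more higher and 3.95% lower; Eln and Mfap4 were below that minimum in both libraries, and without them the count was 3 of 8. The median log2 ratio of the 10 members was 1.20, that of the 8 at this minimum 0.923, and that of all genes at this minimum 0.091. Adipocyte markers differed between these libraries too: 7 of 8 were at 5 or more CPM in eWAT_DFAT, with a sum of 2237 CPM of which Fabp4 gave 2132, and 3 of 8 in iWAT_DFAT, with a sum of 356 CPM. Lep was at 0 in both, and the sums in the ASPC libraries were 83.3 CPM (iWAT) and 337 CPM (eWAT). The part of these markers in the result was not tested. For iWAT_ASPC against eWAT_ASPC, 4 members were 2-fold or more higher (Eln, Fbn2, Mfap2 and Efemp1) and 0 lower, where 2.94% of all genes were higher and 3.94% lower, and the medians were 0.28 for the members and 0.053 for all genes. Because the members were chosen with these ratios known, the counts describe the list and are not independent evidence.

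For iWAT_DFAT against iWAT_ASPC, 0 members were 2-fold or more higher and 5 were lower (Eln, Fbln2, Fbln5, Mfap4 and Efemp1), where 9.91% of all genes were higher and 5.18% lower. For eWAT_DFAT against eWAT_ASPC, 0 were higher and 6 lower (Eln, Fbn1, Fbln2, Fbln5, Mfap4 and Mfap5), where 6.44% of all genes were higher and 6.67% lower. The median log2 ratio of the members was -1.02 in iWAT and -1.52 in eWAT, against 0.088 and 0.070 over all genes. These comparisons each share libraries with the depot comparisons. Across the libraries, iWAT_ASPC had the highest level for 5 members, eWAT_ASPC for 3 (Fbln5, Mfap4 and Mfap5) and iWAT_DFAT for 2 (Fbln1 and Mfap2). Of all 10757 genes with 5 or more CPM in a library, 17.1% were highest in iWAT_ASPC, 19.9% in eWAT_ASPC, 39.1% in iWAT_DFAT and 23.9% in eWAT_DFAT. The differences between the libraries highest and second for Mfap4 lay within the intervals of its levels.

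**Figure D3:**
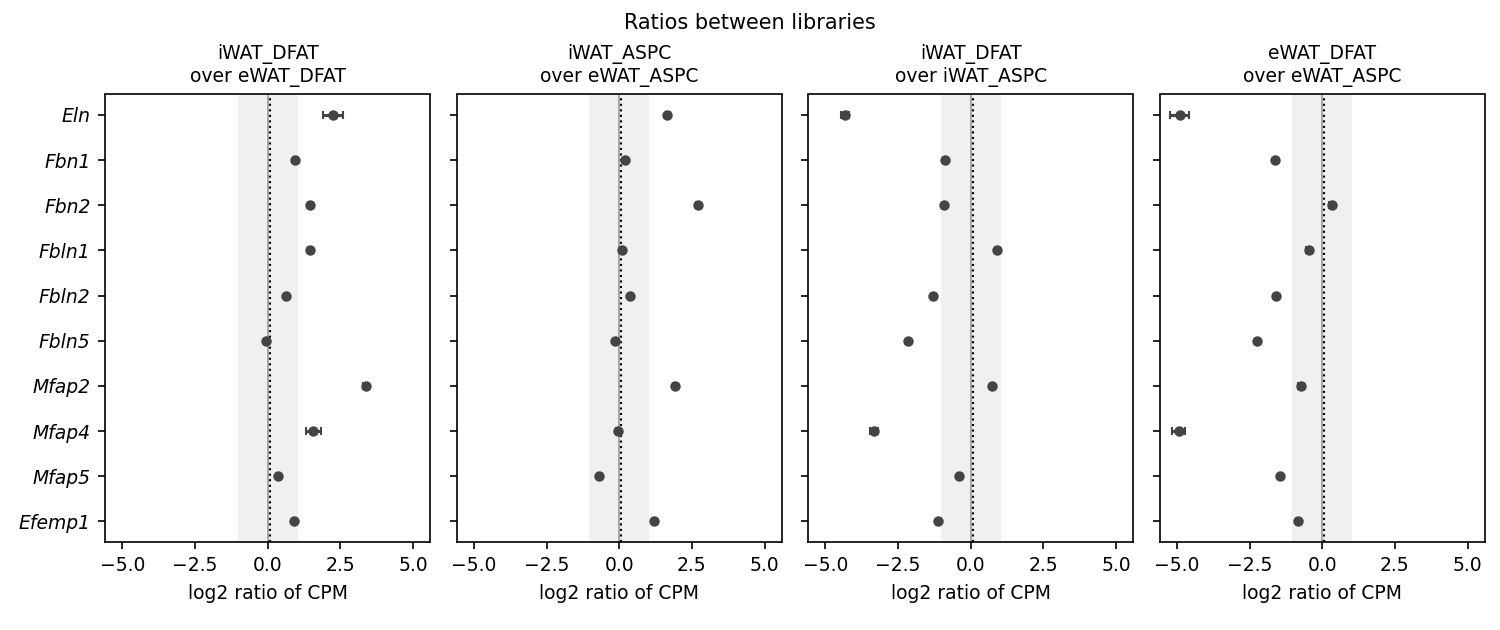
Log2 ratio of CPM for each member in the 4 comparisons, with exact 95% conditional binomial intervals; the grey band holds ratios below 2-fold and the dotted line is the median of all genes with 5 or more CPM. Mfap2 lies farthest right among DFAT libraries (3.38), Fbn2 among ASPC libraries (2.71), and Eln and Mfap4 lie farthest left in both comparisons of DFAT cells with ASPCs.

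The share of cells with a UMI was compared at 1 depth. After thinning to 5000 UMIs, Fbn1 had a UMI in 75.1% of cells of iWAT_DFAT, 55.3% of eWAT_DFAT, 89.3% of iWAT_ASPC and 85.4% of eWAT_ASPC. Before thinning these shares were 95.9%, 87.8%, 96.3% and 96.0%. Mfap2 had a thinned share of 29.5%, 3.42%, 18.2% and 5.81% in the same order (68.2%, 14.8%, 52.7% and 21.2% unthinned), and Fbln5 of 17.7%, 15.9%, 49.9% and 49.9% (53.6%, 52.7%, 87.9% and 86.2%). Eln had 1.04%, 0.294%, 12.5% and 4.82% (4.42%, 1.19%, 28.2% and 12.5%).

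These shares were set beside the endothelial-like and neural-like cells of the same library, taken as a reference, and beside droplets of 1 to 100 UMIs, which hold free RNA. The reference cells were not shown to lack the genes: over the libraries, endothelial-like cells had Fbn1 at 103 CPM and Fbln5 at 40.9 CPM. A share within the intervals of such reference cells therefore does not show that the UMIs are background. In the 37 such cells of iWAT_DFAT and the 140 of eWAT_DFAT, 0 had a thinned UMI of Eln or Mfap4, which allows shares of up to 8.11% and 2.14%. The shares in the stromal-like cells were below these limits, at 1.05% and 0.310% for Eln and 1.52% and 0.586% for Mfap4, so with this few reference cells the comparison could not have separated either gene from background in DFAT cells. In cluster 5 of iWAT_DFAT, 27.3% of cells had a UMI of Mfap4 before thinning and 8.07% after it, and 11.2% and 5.59% had a UMI of Eln. In iWAT_ASPC, Eln had a UMI in 13.1% (12.3% to 13.9%) of stromal-like and 2.99% (1.10% to 6.38%) of endothelial-like and neural-like cells. The Eln share in the stromal-like cells of eWAT_ASPC, 3.07%, and the Mfap2 share there, 5.22%, were within the intervals of the endothelial-like cells, at 1.55% (0.188% to 5.49%) and 5.43% (2.21% to 10.9%). In both DFAT libraries the shares of Fbn2 (12.2% and 5.55%) and Fbln5 (17.7% and 16.7%) in stromal-like cells were within the wide intervals of those reference cells. Median depths were 22153 to 28610 UMIs in stromal-like cells and 10958 to 14575 in the others. In free RNA, Eln was at 3.59 CPM in iWAT_DFAT, 1.08 CPM in eWAT_DFAT, 62.9 CPM in iWAT_ASPC and 14.4 CPM in eWAT_ASPC, above its level in the cells of each library, although the free RNA of the DFAT libraries held 26 and 8 UMIs of it. Mfap4 in free RNA was at 2.62 CPM in iWAT_DFAT (19 UMIs), 0.135 CPM in eWAT_DFAT (1 UMI), 38.9 CPM in iWAT_ASPC and 21.7 CPM in eWAT_ASPC. The cells of iWAT_DFAT had 1.03 times the free RNA level of Mfap4, where the median over genes was 1.07, so the 2 levels were not told apart there.

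**Figure D4:**
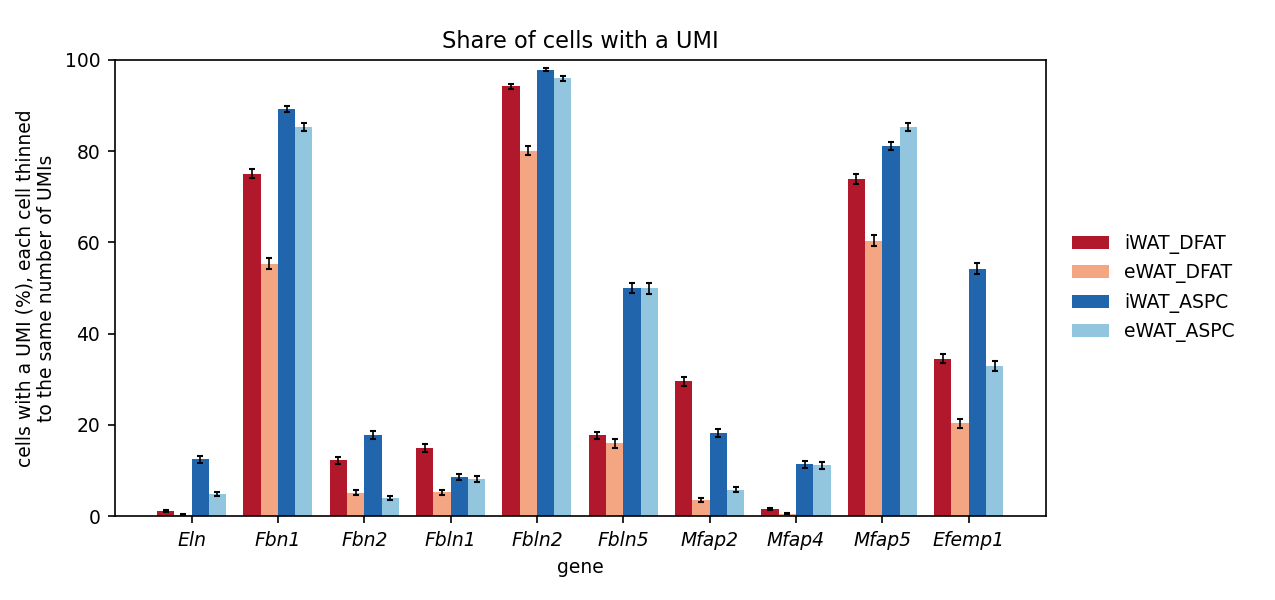
Share of cells with at least 1 UMI of each gene (%, linear axis) after every cell was thinned to 5000 UMIs, with exact 95% binomial intervals. Fbln2 was found in 80.1% to 97.9% of cells and Eln in 0.294% to 12.5%, and the Fbln5 bars separate DFAT cells from ASPCs.

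Among stromal-like cells, those with a thinned UMI of Mki67, Top2a, Cdk1 or Ccnb1, genes of dividing cells, had less Mfap2 in each library and less Eln in 3 of the 4, while the Eln interval reached across 0 in eWAT_DFAT. In iWAT_ASPC the log2 ratio of cells with such a UMI (3523) to cells without (3481) was -0.56 (-0.63 to -0.50) for Eln, -0.50 (-0.56 to -0.44) for Mfap2 and -0.62 (-0.70 to -0.54) for Mfap4. Fbln1 was on the other side, at 0.42 (0.32 to 0.52) in iWAT_ASPC, 0.33 (0.22 to 0.43) in eWAT_ASPC and 0.38 (0.25 to 0.51) in eWAT_DFAT, with 0.00 (-0.07 to 0.07) in iWAT_DFAT. Fbn2 was at 0.22 (0.15 to 0.30) in iWAT_DFAT and 0.23 (0.10 to 0.36) in eWAT_DFAT, but at -0.08 (-0.13 to -0.03) in iWAT_ASPC and -0.02 (-0.16 to 0.12) in eWAT_ASPC. Fbn1 was at 0.05 (0.02 to 0.08) in eWAT_DFAT and below 0 in the other libraries. The share of all cells without such a UMI was 49.5% to 62.1% over the libraries.

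Across the cells of a library, Fbn1 and Fbln2 were most like type I collagen genes, and Mfap5 was most like Timp1. Pearson correlations of log(1 + UMIs) over thinned cells were computed with the 5119 other genes at 20 or more CPM in every library, for the 4 members at 50 or more CPM in every library. Fbn1 was most like Col1a2 (r of 0.30 to 0.50 over the 4 libraries), Col1a1 (0.26 to 0.51) and Lox (0.27 to 0.46), the genes of type I collagen and of a lysyl oxidase. The same genes were the most like Fbln2, at 0.31 to 0.57 for Col1a2, 0.27 to 0.55 for Col1a1 and 0.22 to 0.49 for Lox. Mfap5 was most like Timp1, an inhibitor of matrix metalloproteinases (0.27 to 0.52), then Col1a2 (0.23 to 0.40) and Col1a1 (0.21 to 0.37). For Efemp1 no gene reached 0.20 in every library. Among the 45 pairs of members the mean r over the libraries had a median of 0.05 and was highest for Fbn1 with Fbln2, at 0.32, and Eln with Mfap5 was at 0.18 in iWAT_ASPC and -0.14 in eWAT_ASPC. Cells of a library share its depth and free RNA, and they include types other than stromal-like, so these values are a description. The mesothelial-like cells of eWAT_ASPC held much of its Eln and little of its Mfap5, and the part of the cell mix in these correlations was not tested.

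The 43 partner genes, which crosslink, assemble, bind or cut elastic fibres, included 7 of 26 that were 2-fold or more higher and 2 lower in iWAT_DFAT than in eWAT_DFAT, among those with 5 or more CPM in the higher library. In iWAT_ASPC against eWAT_ASPC 2 of 28 were higher and 3 lower, in iWAT_DFAT against iWAT_ASPC 5 of 29 were higher and 6 lower, and in eWAT_DFAT against eWAT_ASPC 2 of 30 were higher and 7 lower. As shares of the partners tested, and beside the shares of all genes, 26.9% were higher (8.29%) and 7.69% lower (3.95%) in the first comparison, and 7.14% higher (2.94%) and 10.7% lower (3.94%) in the second. In the third, 17.2% were higher (9.91%) and 20.7% lower (5.18%), and in the last 6.67% were higher (6.44%) and 23.3% lower (6.67%). The median log2 ratios of the partners were 0.41, 0.01, -0.01 and -0.55. The partners thus had members on both sides in every comparison.

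Of the crosslinking enzymes, Lox was at 777 CPM in iWAT_DFAT, 352 CPM in eWAT_DFAT, 1636 CPM in iWAT_ASPC and 1365 CPM in eWAT_ASPC, and was lower in DFAT cells at log2 ratios of -1.07 (-1.08 to -1.07) in iWAT and -1.95 (-1.97 to -1.94) in eWAT. Loxl1, the relative that acts with Fbln5 on elastin, was at 312, 151, 170 and 225 CPM in the same order, highest in iWAT_DFAT. Loxl3 was highest in iWAT_ASPC, at 84.1 CPM against 38.8 CPM in eWAT_ASPC. Of the assembly genes, Efemp2, a fibulin that brings lysyl oxidase to tropoelastin, was at 325 CPM in iWAT_DFAT and at 168 to 277 CPM in the others. Emilin1 and Emilin2, glycoproteins at the interface of elastin and microfibrils, were highest in iWAT_DFAT, at 84.5 and 179 CPM against 35.6 and 43.6 CPM in eWAT_DFAT. Of the 5 crosslinking and 9 assembly genes, Loxl1, Efemp2, Emilin1 and Emilin2 were therefore highest in the inguinal DFAT library, where Eln was at 2.12 CPM. The rest were highest in other libraries. Of all genes with 5 or more CPM in a library, 39.1% were highest in iWAT_DFAT.

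Ltbp2, named for the latent TGF-beta binding protein family, was lowest in iWAT_DFAT at 145 CPM, against 306 CPM in eWAT_DFAT, 268 CPM in iWAT_ASPC and 283 CPM in eWAT_ASPC. Among the ADAMTS and ADAMTS-like genes, Adamtsl3 was at 3.22 CPM in iWAT_DFAT, 1.06 CPM in eWAT_DFAT, 39.4 CPM in iWAT_ASPC and 15.0 CPM in eWAT_ASPC. Eln has this order of the libraries, as do Fbn1, Fbln2 and Lox. Adamtsl1 was at 85.7, 15.7, 80.4 and 44.4 CPM, and Adamts6 at 39.9, 60.1, 119 and 89.9 CPM. Of the receptors, Itgb1, the integrin beta chain shared by many matrix receptors, was lower in iWAT_DFAT than in iWAT_ASPC, at 351 against 850 CPM. Itgb5 was at 55.2 CPM in eWAT_DFAT and 133 CPM in eWAT_ASPC. Of the proteases that can cut elastin, Mmp9 (gelatinase B) was at 32.6 CPM in iWAT_DFAT, 4.92 CPM in eWAT_DFAT, 0.361 CPM in iWAT_ASPC and 0.0354 CPM in eWAT_ASPC. Mmp2 (gelatinase A) was at 223 CPM in iWAT_DFAT and at 39.0 to 58.3 CPM in the others. Mmp9 was thus higher in the DFAT library of both depots, at log2 ratios of 6.49 (6.16 to 6.85) in iWAT and 7.12 (6.07 to 8.44) in eWAT. The ASPC levels rest on 72 UMIs in iWAT and 7 in eWAT, where free RNA was at 0.141 CPM (1 UMI). Neither eWAT library reached 5 CPM, so the eWAT ratio is not a precise value.

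**Figure D5:**
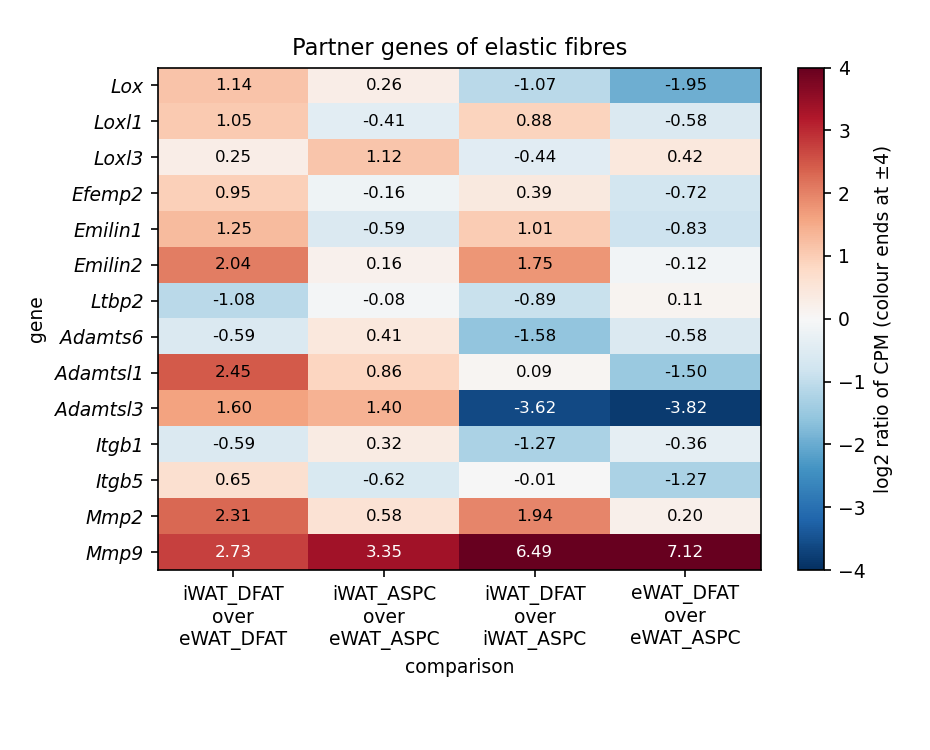
Log2 ratios of CPM (colour and number in each cell) for the 14 partner genes described in the text, in rows, over the 4 comparisons, in columns; the colour scale ends at 4 in either direction. Mmp9 and Mmp2 are higher in iWAT_DFAT than in each library compared with it, Adamtsl3 is lower in DFAT cells than in ASPCs, and Ltbp2 is the row that is lower in iWAT_DFAT than in eWAT_DFAT by more than 2-fold.

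Other matrix families gave a frame for these ratios. For iWAT_DFAT against eWAT_DFAT, 4 of 7 fibrillar collagen genes with 5 or more CPM in the higher library were 2-fold or more higher and 1 lower, with a median log2 ratio of 1.159, and 4 of 6 proteoglycan genes were higher, with a median of 1.377. The 8 elastic fibre members at that minimum had 3 higher and a median of 0.923, below both families. For iWAT_ASPC against eWAT_ASPC, 1 of 7 collagens was higher and 0 lower (median 0.236), and 1 of 7 proteoglycan genes was higher and 2 lower (median -0.141), against a median of 0.275 for the members. For eWAT_DFAT against eWAT_ASPC, 6 of 7 fibrillar collagen genes with 5 or more CPM in the higher library were 2-fold or more lower and 1 higher, with a median log2 ratio of -1.684, and 5 of 7 genes of leucine-rich proteoglycans were lower, with a median of -1.775. Both medians were below the -1.523 of the elastic fibre members. For iWAT_DFAT against iWAT_ASPC, 1 of 7 fibrillar collagens was lower and 1 higher, with a median of -0.674, and the 7 proteoglycan genes had 2 on each side and a median of -0.775, against -1.020 for the members. Col1a1 was at 1546 CPM in iWAT_DFAT, 693 CPM in eWAT_DFAT, 2621 CPM in iWAT_ASPC and 2226 CPM in eWAT_ASPC.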

How the data were processed

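The members, gene lists and comparisons were chosen with earlier results of these data known. The deposited files hold raw UMI counts per gene and barcode, empty droplets included, made by the authors with Cell Ranger and the mm10 genome. Per the processing notes the version was 7.0.0, with introns counted per the methods. Per the file headers it was 7.1.0 for iWAT_DFAT, eWAT_DFAT and eWAT_ASPC and 4 for iWAT_ASPC, so it is not certain that introns were counted in iWAT_ASPC, and ratios to that library carry this limit. Libraries were made with the 10x Genomics 3′ kit, so counts compare 1 gene between libraries and not genes with each other. CellBender and DoubletFinder, which the authors applied, were not run here. With the minimum of 500 UMIs that the methods state, 6988 to 7843 barcodes per library would be kept. The minimum of 5000 came with the list of members.

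Counts were summed over cells and divided by all UMIs. Levels carry exact Poisson, shares exact binomial (Clopper-Pearson) and ratios exact conditional binomial 95% intervals. These cover counting error only, and 1 library per condition allowed no test. Cells were thinned to 5000 UMIs without replacement. Free RNA was taken from droplets of 1 to 100 UMIs. The cells of each library were clustered separately (2000 variable genes, 30 components, 20 neighbours, Leiden at a resolution of 0.5), and a cluster took the name of a cell type when most of its markers (3 or more) were raised 2-fold or more over the remaining cells and seen in 10% or more of the cluster. The others were called stromal-like where 3 or more of the 11 stromal markers were each detected in 50% of cells or more. A cluster with no marker of its type among its leading genes stayed unnamed where 3 times its median UMI count was below that of its library, which left iWAT_ASPC cluster 6 (median 7301 UMIs) unnamed and iWAT_DFAT cluster 6 (7824 UMIs) stromal-like, close to this limit. In all, 601 cells stayed unnamed. Of the 26 stromal-like clusters, 3 had a marker of another type and no stromal marker among their 10 leading genes, so levels of stromal-like cells were given within libraries, and between libraries only in the alternative that leaves out clusters named for other types (unnamed cells kept). Scrublet's own threshold marked 0.0155% to 0.104% of cells, which did not work as a doublet call, and no doublets were removed outside the alternative named for it. Named genes are all members, the partners with 20 or more CPM in a library and a 2-fold difference, Lox, Loxl1 and Efemp2, and the 3 genes most correlated with a member where r was at least 0.2 in every library. Ratios, thinning, correlation and clustering were tested on simulated data. The work used Python 3.11.15, numpy 2.4.6, scipy 1.17.1, scanpy 1.11.5 and leidenalg 0.10.2.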

Additional observations from a re-analysis of the deposited data

Results flagged for a closer look

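The ratios of 4 members pointed in opposite directions in the 2 depots or the 2 preparations, with both counting intervals off 0. Such opposite ratios were common: of the genes with 5 or more CPM, 32.7% had them for iWAT over eWAT (1 of the 10 members) and 25.5% for DFAT cells over ASPCs (3 of the 10). With 1 library per condition, the differences between these ratios were not tested. Mfap5 was higher in iWAT than in eWAT among DFAT cells, at a log2 ratio of 0.37, and lower among ASPCs, at -0.69. Fbn2 was lower in DFAT cells than in ASPCs in iWAT, at -0.92, and higher in eWAT, at 0.32. Fbln1 was higher in DFAT cells in iWAT, at 0.92, and lower in eWAT, at -0.47. Mfap2 was higher in DFAT cells in iWAT, at 0.72, and lower in eWAT, at -0.73. Under the 12 recomputations of each ratio these 8 ratios kept their signs, with Fbn2 in eWAT ranging from 0.14 to 0.32.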

How the results depend on the processing

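Each of the 8 counts of members was recomputed under 15 settings, and 113 of 120 values stayed within 1.5 times the reported count. With 1.5-fold in place of 2-fold, 8 members were higher in iWAT_DFAT than in eWAT_DFAT (6 of the 8 at 5 or more CPM, and 17.6% of all genes at that minimum), 1 was lower in iWAT_ASPC than in eWAT_ASPC (7.44%), and 2 were higher in iWAT_DFAT than in iWAT_ASPC (18.4%). With 3-fold, 2 were higher in iWAT_DFAT than in eWAT_DFAT (1 of the 8 at 5 or more CPM, and 3.58% of all genes) and 3 were lower in iWAT_DFAT than in iWAT_ASPC (2.89%). With members at 5 or more CPM only, 3 were higher in iWAT_DFAT than in eWAT_DFAT. With cells without a cell cycle UMI, 1 was higher in iWAT_DFAT than in iWAT_ASPC.

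Among 40 member ratios under 12 other settings, 2 moved by over 1.5 times, both for Eln without the clusters of other cell types: 2.41 in place of 1.66 (iWAT_ASPC over eWAT_ASPC) and -4.21 in place of -4.89 (eWAT_DFAT over eWAT_ASPC). Signs changed for 3 of these ratios, iWAT over eWAT: Fbln5 in DFAT cells (-0.05, up to 0.05), Mfap4 in ASPCs (-0.05, up to 0.12) and Fbln1 in ASPCs (0.09, down to -0.03). Size factors lowered the median of all genes by 0.109 for iWAT_ASPC over eWAT_ASPC and by 0.173 for eWAT_DFAT over eWAT_ASPC. With size factors, 11 of the 40 ratios stayed within their counting intervals. Without cells that had a cell cycle UMI 14 did, and 18 did when every cell weighed the same. Under the other settings 21 to 40 did. No paired analysis was possible because each condition has 1 library, so that a depot gives a single DFAT and ASPC pair and no spread between pairs. Depth limits Eln and Mfap4 in DFAT cells, where 84 to 497 UMIs were counted per library.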
